A study of Angelica pubescens with 12 samples.

Results

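Lipoxygenases add molecular oxygen to linoleic and linolenic acid, the polyunsaturated fatty acids released from plant membranes. The 13-type enzymes of plastids make the hydroperoxide from which allene oxide synthase and allene oxide cyclase build the precursor of the hormone jasmonate, which acts in responses to wounding, insects and pathogens. The 9-type enzymes oxidise the other side of the double-bond system, and their products feed a separate set of oxylipins that includes divinyl ethers and ketols, studied in roots and tubers of other plants.

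The 3 unigenes described here, of 67432 in a transcriptome of Angelica pubescens roots, are 1 annotated as chloroplastic linoleate 13S-lipoxygenase 2-1 (TRINITY_DN19578_c0_g1_i6_3), 1 as chloroplastic linoleate 13S-lipoxygenase 3-1 (TRINITY_DN18008_c0_g3_i1_2) and 1 as probable linoleate 9S-lipoxygenase 5 (TRINITY_DN13638_c0_g1_i1_2). A unigene is a transcript assembled from reads without a reference genome. They were chosen by their measured levels, which differed between producing areas, with the difference between Chongqing and Hubei among the values known. Their levels are therefore a description, and they were tested only for Gansu against Shanxi, a pair that holds no Chongqing or Hubei library. The levels in Gansu and Shanxi may also have been known at the choice. The p-values of this pair may therefore be too small. Roots of plants labelled as 2 years old came from the areas Chongqing, Gansu, Hubei and Shanxi, which the series describes as differing in ecological environment. Total RNA of each area was sequenced as 3 libraries, 12 in all. The labels name no treatment, and they do not say whether the 3 libraries of an area came from separate plants or how many roots each held, so that the p-values rest on the spread among these libraries, part or all of which may be technical.

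The libraries held 19920182 to 23319714 estimated counts each and had counts for 86.1% to 89.4% of all unigenes. The top 10 unigenes of a library held 7.32% to 7.74% of its counts in Shanxi and 4.76% to 5.58% in the other areas. Levels are given as CPM, counts scaled to a common library size with edgeR's TMM factors, which compare 1 unigene across libraries, and as the deposited FPKM, which also divides by transcript length and is used to compare unigenes with each other. Errors are SD over n = 3 libraries. All 3 lipoxygenase unigenes passed the filter on low counts, and 13S-lipoxygenase 2-1 passed it through its Hubei libraries alone.

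Each of the 3 transcripts was annotated with the catalytic lipoxygenase domain and the PLAT/LH2 domain, a membrane-facing module typical of plant lipoxygenases. The KEGG orthology term was K00454, the 13-type enzyme, for both 13S-lipoxygenases and K15718, the 9-type enzyme, for 9S-lipoxygenase 5. Transcript lengths implied by the ratio of counts to FPKM were 2605 to 2641 bases for 13S-lipoxygenase 2-1, from the 5 libraries where it had 10 or more counts. The implied lengths were 2751 to 2793 bases for 13S-lipoxygenase 3-1 and 2278 to 2313 bases for 9S-lipoxygenase 5. In each case the transcript gave nearly all counts of its assembled gene: both 13S-lipoxygenases were the only unigene of theirs, and 9S-lipoxygenase 5 held 99.7% of the counts of an assembled gene with 2 unigenes.

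13S-lipoxygenase 2-1 was abundant in Hubei roots and near 0 elsewhere. Its estimated counts were 2653, 2367 and 2289 in the Hubei libraries. They were 5.85, 0.380 and 3.01 in Chongqing, 0.00202, 10.5 and 12.5 in Gansu, and 0.00608, 2.94 and 2.10 in Shanxi. Hubei therefore stood apart from all 9 other libraries, while the libraries of the other areas overlapped. On the CPM scale the levels were 109 ± 13.2 in Hubei, 0.333 ± 0.289 in Gansu, 0.128 ± 0.129 in Chongqing and 0.0717 ± 0.0651 in Shanxi. By mean FPKM it ranked 3188 among the 67432 unigenes in Hubei, at 40.4 ± 3.68, and 60630 to 62205 in the other areas.

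Because so few counts lay in the lower areas, the size of the Hubei excess is given as a ratio of summed counts with an exact binomial 95% interval, which covers counting error only. The ratio was 319 over Gansu (interval 210.4 to 509, 7309 against 22 counts), 843 over Chongqing (444 to 1844, 9 counts) and 1490 over Shanxi (638 to 4591, 5 counts). Leaving out 1 library moved these ratios: without Shanxi replicate 2, 2 counts remained and the ratio was 2444 (676 to 20180), and without Shanxi replicate 3, 3 counts remained and it was 1662 (569 to 8061). Without Chongqing replicate 1, 3 counts remained in Chongqing and the ratio was 1685 (576 to 8172). These leave-outs were taken only where 3 or fewer counts remained, and each raised the ratio. The fitted log2 differences were -9.66 ± 0.41 (SE) for Chongqing minus Hubei, -8.30 ± 0.36 for Gansu minus Hubei and 10.44 ± 0.44 for Hubei minus Shanxi. Leaving out a library with almost no count made them smaller. Chongqing minus Hubei was -9.12 without Chongqing replicate 2, and Gansu minus Hubei was -7.75 without Gansu replicate 1. Hubei minus Shanxi was 9.89 without Shanxi replicate 1. Among the 3 lower areas the order was not resolved: the log2 difference between Chongqing and Gansu was -1.36 ± 0.88, and that between Chongqing and Shanxi was 0.78 ± 1.22, which became -0.19 without Chongqing replicate 1.

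13S-lipoxygenase 3-1 was also highest in Hubei, with a graded level in the other areas. Its CPM values were 198, 184 and 172 in the Hubei libraries and 11.4, 10.6 and 11.6 in the Shanxi libraries. They were 4.92, 5.12 and 5.01 in Gansu and 2.57, 2.09 and 1.74 in Chongqing. No neighbouring areas overlapped in this order, and the mean of each area exceeded the next by a ratio of 16.5 (Hubei over Shanxi), 2.23 (Shanxi over Gansu) and 2.35 (Gansu over Chongqing). The log2 difference was -6.43 ± 0.12 (SE) for Chongqing minus Hubei, -5.20 ± 0.11 for Gansu minus Hubei and 4.05 ± 0.10 for Hubei minus Shanxi. The FPKM was 64.9 ± 2.51 in Hubei, where it ranked 1855, against 3.97 ± 0.113 in Shanxi, 1.84 ± 0.0384 in Gansu and 0.775 ± 0.146 in Chongqing.

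9S-lipoxygenase 5 had another pattern: it was low in Chongqing and high in the 3 other areas, with the highest level in Shanxi. The CPM values were 3.99, 3.22 and 3.98 in Chongqing. They were 95.9, 100.9 and 92.1 in Gansu, 113.8, 111.7 and 111.5 in Hubei, and 165.5, 155.8 and 159.8 in Shanxi. The areas did not overlap, although Gansu and Hubei lay close together, with a ratio of means of 1.17 against 25.8 between Gansu and Chongqing. Chongqing differed from Gansu by -4.69 ± 0.08 (SE), from Hubei by -4.91 ± 0.08 and from Shanxi by -5.42 ± 0.09 on the log2 scale. In FPKM the unigene reached 68.9 ± 0.637 in Shanxi, rank 1683 of all unigenes, and 1.64 ± 0.224 in Chongqing, rank 38408.

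**Figure D1:**
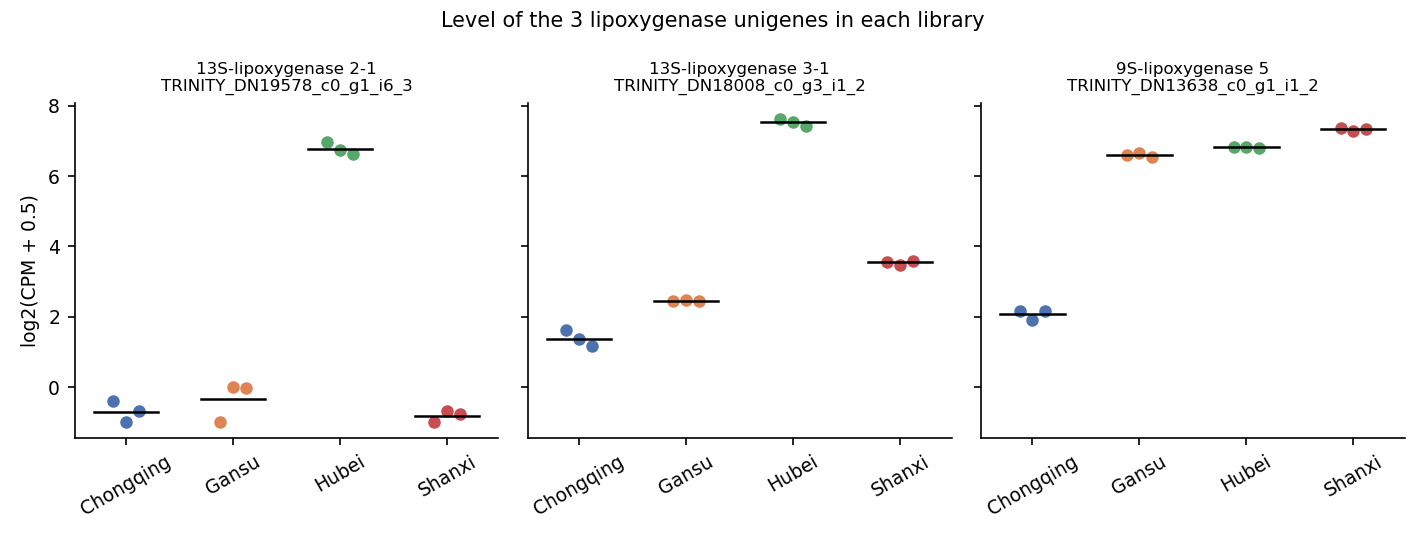
Level of the 3 lipoxygenase unigenes in each library as log2(CPM + 0.5), 1 point per library and 3 libraries per area, with a line at the mean of the plotted values. In Hubei both 13S-lipoxygenases stand above all 9 other libraries, and 9S-lipoxygenase 5 is low in Chongqing and highest in Shanxi.

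The leading lipoxygenase of the 3 thus differed by area on the FPKM scale. In Hubei it was 13S-lipoxygenase 3-1 (64.9), followed by 9S-lipoxygenase 5 (47.8 ± 1.004) and 13S-lipoxygenase 2-1 (40.4). In Gansu and Shanxi it was 9S-lipoxygenase 5, at 42.7 ± 0.728 and 68.9, and in Chongqing none of the 3 exceeded a mean of 1.64. Over the 12 libraries the Pearson correlation of log2 CPM was 0.935 between the 13S-lipoxygenases, 0.311 between 13S-lipoxygenase 2-1 and 9S-lipoxygenase 5, and 0.576 between 13S-lipoxygenase 3-1 and 9S-lipoxygenase 5. These are descriptions over libraries that fall into 4 areas.

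For Gansu against Shanxi, 44.1% of the 60756 tested unigenes were called at an adjusted p under 0.05 by edgeR's quasi-likelihood test, 21.2% higher in Gansu and 22.9% higher in Shanxi. Of the 3 lipoxygenases, 2 were called, both higher in Shanxi, a share to be read against that background. 13S-lipoxygenase 3-1 was 2.22-fold higher in Shanxi (log2 difference -1.15 ± 0.11 for Gansu minus Shanxi, adjusted p = 1.2e-06), in 3 of 3 libraries. 9S-lipoxygenase 5 was 1.67-fold higher there (-0.74 ± 0.07, adjusted p = 8.7e-07), also in 3 of 3 libraries. 13S-lipoxygenase 2-1 was not called, at 2.14 ± 1.0 (SE, adjusted p = 0.10), from 22 counts in Gansu and 5 in Shanxi. That value depended on single libraries. Without Gansu replicate 1, which held almost no count, the difference was 2.68 (adjusted p = 0.012). Without Shanxi replicate 1, which also held almost no count, it was 1.59 (adjusted p = 0.25). The unigene entered this test only through its Hubei libraries, so no conclusion on this pair is drawn from it.

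Reads of a gene can be split between similar unigenes of an assembly made without a genome, so each unigene was set beside the sum of all unigenes matched to the same NR protein entry. 13S-lipoxygenase 3-1 was the only unigene of its entry, so its sum was its own level, and in the fit on sums Gansu minus Shanxi was -1.17 ± 0.10 (adjusted p = 4.7e-07). The entries of 13S-lipoxygenase 2-1 and of 9S-lipoxygenase 5 each held 3 unigenes, and both sums gave another picture than the unigene alone.

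For 13S-lipoxygenase 2-1 the summed level was 164 ± 12.9 CPM in Hubei, 37.4 ± 1.99 in Chongqing, 11.1 ± 1.26 in Shanxi and 7.52 ± 0.665 in Gansu. The described unigene gave 66.7% ± 2.88 of the sum in Hubei, but 0.352% in Chongqing, 4.83% in Gansu and 0.701% in Shanxi. The rest came mainly from TRINITY_DN1766_c0_g1_i1_1, also annotated as 13S-lipoxygenase 2-1, with CPM values of 37.6, 36.1 and 33.6 in Chongqing and 43.4, 49.3 and 40.4 in Hubei. Its values were 8.28, 6.34 and 6.29 in Gansu and 11.7, 9.62 and 9.60 in Shanxi. This second unigene was thus high in Chongqing and Hubei alike, with a log2 difference of -0.31 ± 0.12 (adjusted p = 0.039). It was higher in Chongqing than in Gansu by 2.36 ± 0.13 (adjusted p = 9.9e-09) and higher in Hubei than in Shanxi by 2.11 ± 0.12 (adjusted p = 1.7e-08). The third unigene, TRINITY_DN20262_c0_g1_i12_2, was highest in Hubei at 9.79 ± 2.41 CPM and had 1.52 ± 0.812 in Chongqing, 0.703 ± 0.176 in Shanxi and 0.261 ± 0.350 in Gansu.

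Summed over the entry, Chongqing minus Hubei was -2.13 ± 0.09 on the log2 scale, against -9.66 for the unigene, and Hubei minus Shanxi was 3.88 ± 0.10 against 10.44. Chongqing minus Gansu was 2.32 ± 0.10 against -1.36 ± 0.88 for the unigene. Gansu minus Shanxi was -0.56 ± 0.11 (adjusted p = 0.00059) against 2.14 ± 1.0 for the unigene. Of the 49479 tested NR entries, 44.6% were called for this pair, 20.9% higher in Gansu and 23.7% higher in Shanxi. Neither of these unigene values was resolved, so the unlike signs are not read as a reversal. The Hubei level was the highest in the unigene and in the sum. As the unigene gave 66.7% of the sum in Hubei, the sum is no separate support for that peak. The main partner was also highest in Hubei, but Chongqing minus Hubei was only -0.31 for it. In the sum, the order of the 3 other areas belonged to the partner unigenes.

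For 9S-lipoxygenase 5 the summed level was 248 ± 9.25 CPM in Shanxi, 208 ± 12.6 in Gansu, 172 ± 2.01 in Hubei and 38.9 ± 4.02 in Chongqing. The described unigene gave 64.7% of the sum in Shanxi, 65.5% in Hubei, 46.1% in Gansu and 9.69% in Chongqing. Its main partner, TRINITY_DN25198_c1_g1_i6_3, had CPM values of 104, 119 and 103 in Gansu, 76.3, 69.1 and 74.4 in Shanxi, 58.5, 56.2 and 57.1 in Hubei and 30.3, 38.0 and 36.1 in Chongqing. This partner was highest in Gansu, 0.57 ± 0.09 above Shanxi on the log2 scale (adjusted p = 0.00012) and 0.92 ± 0.09 above Hubei (adjusted p = 1.3e-06). It was lowest in Chongqing, 1.64 below Gansu (Chongqing minus Gansu -1.64 ± 0.09, adjusted p = 9.6e-09). The other, TRINITY_DN24041_c0_g1_i3_4, reached 14.1 ± 1.25 CPM in Shanxi and 4.20 ± 1.46 or less elsewhere.

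The sum kept Chongqing the lowest area, with log2 differences of -2.41 ± 0.08 to Gansu, -2.15 ± 0.07 to Hubei and -2.67 ± 0.08 to Shanxi, each smaller than that of the unigene. Gansu and Hubei changed places: Gansu minus Hubei was 0.27 ± 0.07 for the sum and -0.22 ± 0.07 for the unigene. Gansu minus Shanxi was -0.26 ± 0.07 for the sum (adjusted p = 0.0077), and without Gansu replicate 3 it was -0.20 (adjusted p = 0.081).

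**Figure D2:**
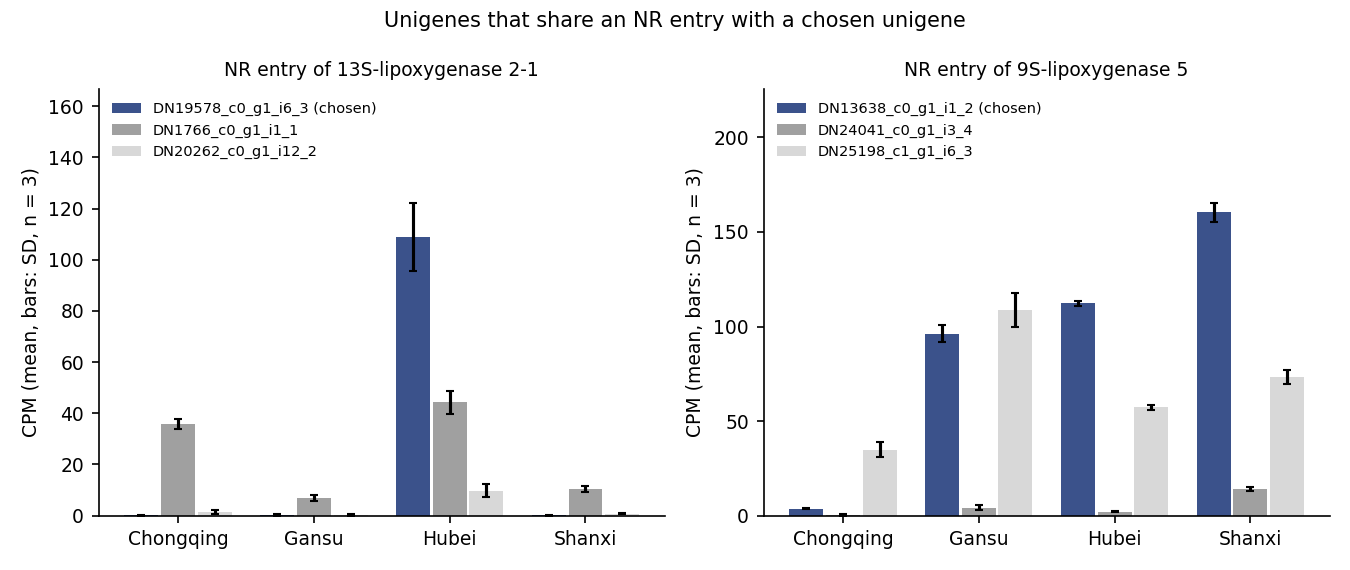
CPM of the unigenes that share an NR entry with 13S-lipoxygenase 2-1 (left) and with 9S-lipoxygenase 5 (right), as means with SD over 3 libraries per area. In Chongqing most of each sum comes from a partner unigene, while in Hubei most of it comes from the described unigene (66.7% and 65.5%).

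**Figure D3:**
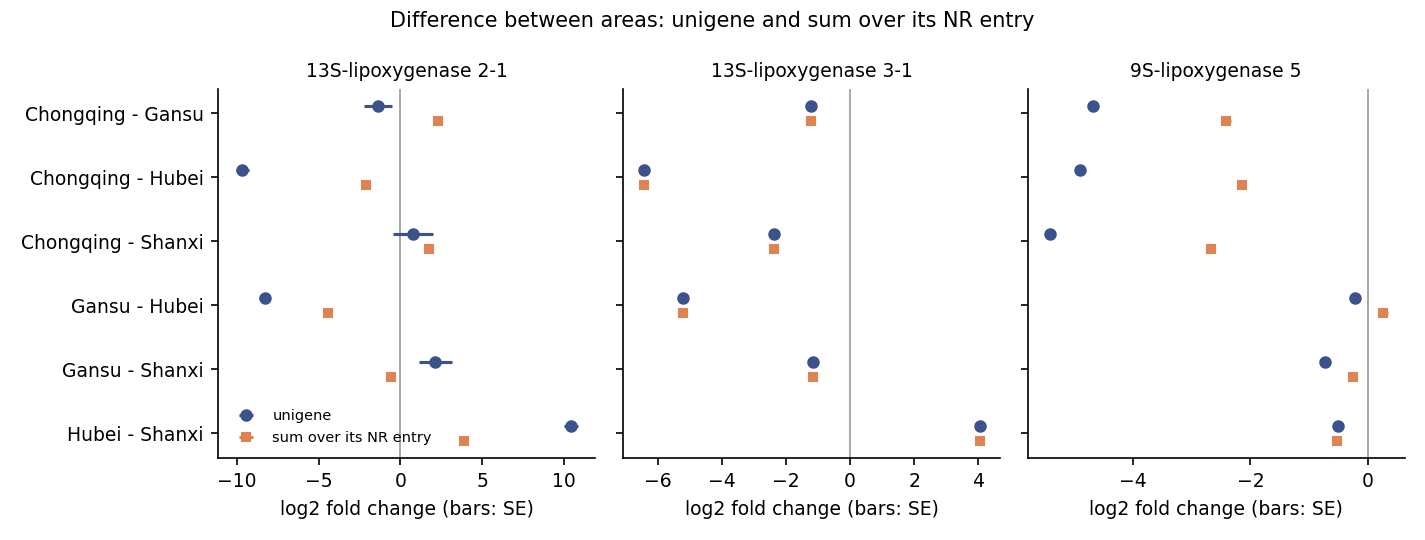
Log2 difference between areas, first minus second, for each unigene (circles) and for the counts summed over its NR entry (squares), with bars for the SE. Circles and squares coincide for 13S-lipoxygenase 3-1, the only unigene of its entry, and lie on opposite sides of 0 for 13S-lipoxygenase 2-1 in Chongqing minus Gansu and Gansu minus Shanxi and for 9S-lipoxygenase 5 in Gansu minus Hubei. For 13S-lipoxygenase 2-1 the unigene values of those pairs were not resolved.

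Against the rest of the root's lipoxygenases, the weight of the 3 unigenes shifted with the area. Summed over the 14 unigenes of the 13-type term, the FPKM was 169.6 ± 7.63 in Hubei, 62.4 ± 2.50 in Chongqing, 59.7 ± 2.97 in Shanxi and 47.3 ± 2.23 in Gansu. Both described 13S-lipoxygenases together gave 62.1% ± 1.72 of it in Hubei, and 1.33% in Chongqing, 4.18% in Gansu and 6.72% in Shanxi. Summed over the 17 unigenes of the 9-type term, the FPKM was 144 ± 1.38 in Shanxi, 129 ± 0.914 in Hubei, 109 ± 3.24 in Gansu and 25.8 ± 1.47 in Chongqing. 9S-lipoxygenase 5 gave 47.8% ± 0.698 of that in Shanxi, 36.9% in Hubei, 39.2% in Gansu and 6.39% in Chongqing. By these sums the 13-type exceeded the 9-type in Chongqing and Hubei, and the 9-type exceeded the 13-type in Gansu and Shanxi. The library ranges of both sums did not overlap in any area. The sums hold the 3 described unigenes, which were chosen by their levels, so this order is a description. In Hubei it rested on the described 13S-lipoxygenases: the rest of the 13-type sum lay below the 9-type sum.

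**Figure D4:**
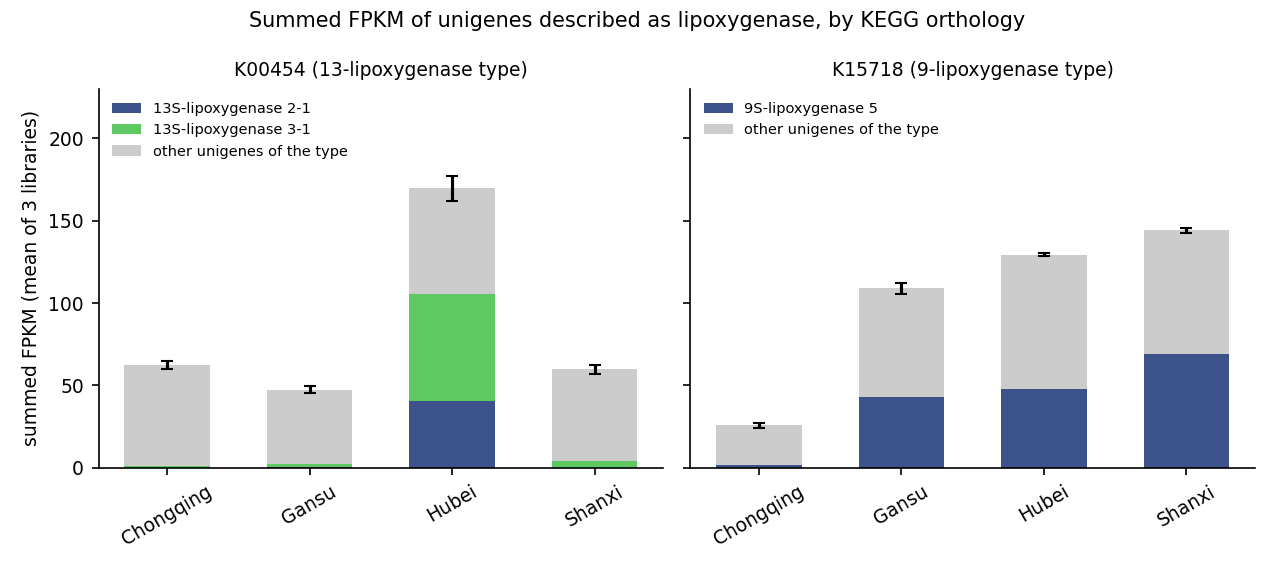
Summed FPKM of unigenes described as lipoxygenase by KEGG orthology term, 13-type on the left and 9-type on the right, as means over 3 libraries per area with SD of the sum. Coloured segments are the described unigenes, which give 62.1% of the 13-type sum in Hubei and 47.8% of the 9-type sum in Shanxi.

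In all, 35 unigenes were described as lipoxygenase, and all 35 passed the filter on low counts. Of them 25 carried the lipoxygenase domain, and 10 did not. Of the 32 other than the 3 described, 30 (93.8%) were called in the test of any difference between areas, beside 70.4% of all tested unigenes. After summing by NR entry, 69.6% of all tested entries were called in that test. By highest mean level, 15 of the 32 peaked in Shanxi, 10 in Hubei, 4 in Gansu and 3 in Chongqing. For Gansu against Shanxi, 17 were higher in Shanxi and 4 in Gansu (median log2 difference -1.26, against 0.00 over all tested unigenes). This is beside 22.9% and 21.2% of all tested unigenes, or 44.1% in either direction. For Chongqing against Hubei, 15 were higher in Hubei and 7 in Chongqing (median -0.65), beside 25.9% and 23.6% of all tested unigenes, or 49.6% in either direction. For Chongqing against Shanxi, 18 were higher in Shanxi and 5 in Chongqing (median -1.09), beside 24.8% and 23.0%, or 47.8% in either direction. For Chongqing against Gansu, 11 were higher in Gansu and 6 in Chongqing (median -0.01), beside 19.1% and 19.4%, or 38.5% in either direction. For Gansu against Hubei, 11 were higher in Hubei and 10 in Gansu (median -0.01), beside 26.5% and 24.0%, or 50.5% in either direction. For Hubei against Shanxi, 16 were higher in Shanxi and 7 in Hubei (median -0.70), beside 21.0% and 23.5%, or 44.6% in either direction. Both described 13S-lipoxygenases were higher in Hubei than in Shanxi, and 9S-lipoxygenase 5 was higher in Shanxi.

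Of the other abundant lipoxygenases, the second 13S-lipoxygenase 3-1 unigene (TRINITY_DN17283_c0_g1_i1_1, matched to another NR entry) differed between areas by smaller amounts than the described one. Its level was 45.3 ± 4.77 CPM in Hubei, 35.2 ± 2.44 in Shanxi, 33.6 ± 0.103 in Gansu and 27.9 ± 0.946 in Chongqing, and Chongqing minus Hubei was -0.70 ± 0.08 (adjusted p = 1.3e-05). Lipoxygenase 6 (TRINITY_DN20288_c0_g1_i3_1), a further plastid 13-type enzyme, lay between 23.1 ± 3.49 and 27.3 ± 1.45 CPM in the 4 areas and was not called in the test of any difference (adjusted p = 0.31). Another lipoxygenase 6 unigene (TRINITY_DN23077_c0_g3_i15_1) ran against the described 13S-lipoxygenases: it had 31.0 ± 3.49 CPM in Chongqing and 30.9 ± 8.60 in Gansu, but 2.73 ± 0.799 in Hubei and 3.05 ± 0.740 in Shanxi (Chongqing minus Hubei 3.50 ± 0.25, adjusted p = 9e-08). The remaining one, TRINITY_DN23813_c2_g1_i1_3, was highest in Shanxi at 13.3 ± 1.28 CPM, with 8.40 to 9.07 elsewhere.

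Among 9-type unigenes, TRINITY_DN21824_c0_g1_i2_3 shared the Hubei peak of the 13S-lipoxygenases. It had 58.0 ± 7.31 CPM in Hubei, 15.0 ± 2.10 in Shanxi, 3.28 ± 0.764 in Chongqing and 1.13 ± 0.760 in Gansu, and Hubei minus Shanxi was 1.95 ± 0.24 (adjusted p = 1.9e-05). TRINITY_DN23425_c1_g1_i4_1, which also carried a reverse transcriptase domain, was lowest in Hubei at 26.4 ± 0.893 CPM and highest in Shanxi at 81.8 ± 1.58. TRINITY_DN20464_c0_g1_i7_3, described as 13S-lipoxygenase 2-1 but without the lipoxygenase domain, had 25.1 ± 1.80 CPM in Shanxi and 21.6 ± 1.82 in Hubei, and 11.98 ± 0.642 or less in the others.

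The substrate of the 3 enzymes is made by desaturases and freed by lipases. Of 51 tested unigenes of substrate release and desaturation, 40 were higher in Hubei than in Chongqing and 4 lower, beside 25.9% and 23.6% of all tested unigenes (median log2 difference -2.61 for Chongqing minus Hubei, against 0.00 over all tested unigenes). In Chongqing against Gansu 29 were higher in Gansu and 5 in Chongqing, beside 19.1% and 19.4% of all tested unigenes. In Hubei against Shanxi 31 were higher in Hubei and 8 in Shanxi, beside 23.5% and 21.0%. For Gansu against Shanxi, 21 were higher in Gansu and 14 in Shanxi, beside 21.2% and 22.9%. The most abundant called member was FAD2 (TRINITY_DN12648_c0_g1_i1_2), the desaturase that makes linoleate from oleate, with 803 ± 87.4 CPM in Hubei and 456 ± 46.3 in Gansu, 365 ± 36.9 in Shanxi and 313 ± 17.8 in Chongqing. A second FAD2 unigene (TRINITY_DN22300_c2_g1_i3_2) was low in Chongqing alone, as 9S-lipoxygenase 5 was: 20.3 ± 3.18 CPM there, 158 ± 5.04 in Shanxi, 254 ± 14.4 in Gansu and 473 ± 29.8 in Hubei (Chongqing minus Hubei -4.54 ± 0.11, adjusted p = 1.9e-12). The list also took in 1 match outside lipid metabolism, a subunit of an oligosaccharide transferase named DAD1.

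The steps after 13-lipoxygenase lead to jasmonate. Of 58 tested unigenes of these steps, 30 were higher in Hubei than in Chongqing and 9 lower, beside 25.9% and 23.6% of all tested unigenes. In Shanxi 32 were higher than in Chongqing and 7 lower, beside 24.8% and 23.0%. The median log2 difference was -0.78 for Chongqing minus Hubei, or -0.72 with members at 0 counts in an area set to their bound. Against the other areas, 22 were higher in Hubei and 20 in Gansu (median 0.08 for Gansu minus Hubei), beside 26.5% and 24.0%, and 22 were higher in Hubei and 14 in Shanxi (median -0.04 for Hubei minus Shanxi), beside 23.5% and 21.0%. For Gansu against Shanxi, 19 were higher in each area (median -0.14), beside 21.2% higher in Gansu and 22.9% higher in Shanxi. Allene oxide cyclase (TRINITY_DN16922_c0_g1_i1_2), which closes the ring of the jasmonate precursor, had the area order of 13S-lipoxygenase 3-1, with smaller differences. Its CPM values were 348, 333 and 293 in Hubei, 179, 164 and 165 in Shanxi, 105, 109.7 and 101 in Gansu and 84.8, 84.7 and 78.6 in Chongqing (Hubei minus Shanxi 0.94 ± 0.07, adjusted p = 2.2e-07). The amino acid synthetase JAR4 (TRINITY_DN21391_c2_g1_i7_2), which conjugates jasmonate to isoleucine, had 397 ± 36.5 CPM in Hubei, 328 ± 19.0 in Chongqing, 286 ± 30.3 in Shanxi and 147 ± 11.4 in Gansu.

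Other steps were picked after their values were seen, as the most abundant unigene of each. Allene oxide synthase (TRINITY_DN21277_c0_g1_i1_2), which takes the 13-hydroperoxide first, had 69.3 ± 5.13 CPM in Hubei and 66.0 ± 5.43 in Gansu, a difference that was not called (adjusted p = 0.62), and 34.3 ± 4.51 in Shanxi and 28.0 ± 3.10 in Chongqing. 12-oxophytodienoate reductase 3 (TRINITY_DN11089_c0_g1_i1_2), the peroxisomal step, was highest in Hubei at 70.7 ± 5.04 CPM, with 29.4 to 36.1 elsewhere. Fatty acid hydroperoxide lyase (TRINITY_DN15235_c0_g1_i2_2), which cleaves the same hydroperoxide to aldehydes, had 16.7 ± 0.930 CPM in Hubei, 4.48 ± 0.487 in Shanxi, 2.49 ± 0.388 in Gansu and 0.172 ± 0.0437 in Chongqing. This is the order of the areas seen for 13S-lipoxygenase 3-1, at a lower level.

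The list of jasmonate signalling took in every unigene described as Topless, whether or not it acts in that route. Of its 54 tested unigenes, 22 were higher in Hubei than in Chongqing and 16 lower, beside 25.9% and 23.6% of all tested unigenes. In Hubei 29 were higher than in Shanxi and 10 lower, beside 23.5% and 21.0% (median log2 difference 0.67 for Hubei minus Shanxi). Against Shanxi, 19 were higher in Chongqing and 15 lower, beside 23.0% and 24.8%, and 20 were higher in Gansu and 15 lower, beside 21.2% and 22.9%. The repressor TIFY 6B (TRINITY_DN20544_c0_g1_i1_3) had 339 ± 34.0 CPM in Hubei, 187 ± 18.4 in Gansu, 165 ± 14.0 in Shanxi and 101 ± 7.22 in Chongqing. The corepressor Topless-related protein 4 (TRINITY_DN18503_c0_g1_i7_3) was lowest in Hubei, at 174 ± 11.4 CPM, and highest in Gansu, at 351 ± 14.5. Picked after their values were seen, the repressor TIFY 10b (TRINITY_DN8955_c0_g1_i2_2) had 344 ± 32.3 CPM in Hubei and 61.6 ± 2.88 to 127 ± 12.6 elsewhere, whereas the transcription factor MYC2 (TRINITY_DN17766_c0_g1_i1_1) was highest in Shanxi at 70.3 ± 5.11, with 42.4 ± 2.88 in Hubei. The receptor component COI1 (TRINITY_DN20934_c0_g2_i1_4) lay between 10.2 ± 1.38 and 14.8 ± 2.57 CPM in all 4 areas.

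Of 21 tested unigenes for proteins that jasmonate or wounding induces in tomato and Arabidopsis, 15 were higher in Hubei than in Chongqing and 5 lower, beside 25.9% and 23.6% of all tested unigenes. Against Shanxi, 15 were higher in Hubei and 5 lower, beside 23.5% and 21.0% (median log2 difference 1.11 for Hubei minus Shanxi, against 0.00 over all tested unigenes). Polyphenol oxidase (TRINITY_DN14988_c0_g1_i1_2), which oxidises phenolics in damaged tissue, had CPM values of 4128, 3806 and 3502 in Hubei. It had 276 ± 16.8 in Shanxi, 326 ± 22.2 in Gansu and 18.4 ± 4.85 in Chongqing, so that Hubei exceeded Shanxi by 3.79 ± 0.14 on the log2 scale (adjusted p = 2.5e-10). Cysteine proteinase inhibitor 6 (TRINITY_DN21942_c0_g1_i3_4) went the other way, with 73.0 ± 3.72 CPM in Hubei, 248 ± 22.4 in Shanxi, 489 ± 27.3 in Chongqing and 517 ± 2.85 in Gansu. Of 9 tested unigenes for other fates of the hydroperoxides, 5 were higher in Hubei than in Chongqing and 4 lower, beside 25.9% and 23.6% of all tested unigenes. This list held a pair of cytochrome P450 unigenes that are no hydroperoxide enzymes, matched by the letters of their family name. The peroxygenases SOP1 (TRINITY_DN17364_c0_g1_i3_2) and probable peroxygenase 4 (TRINITY_DN16321_c0_g1_i1_4) were highest in Chongqing, at 54.1 ± 2.42 and 36.6 ± 3.27 CPM, where all 3 described lipoxygenases were low. The areas share libraries between pairs, so the counts of different pairs are not independent.

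**Figure D5:**
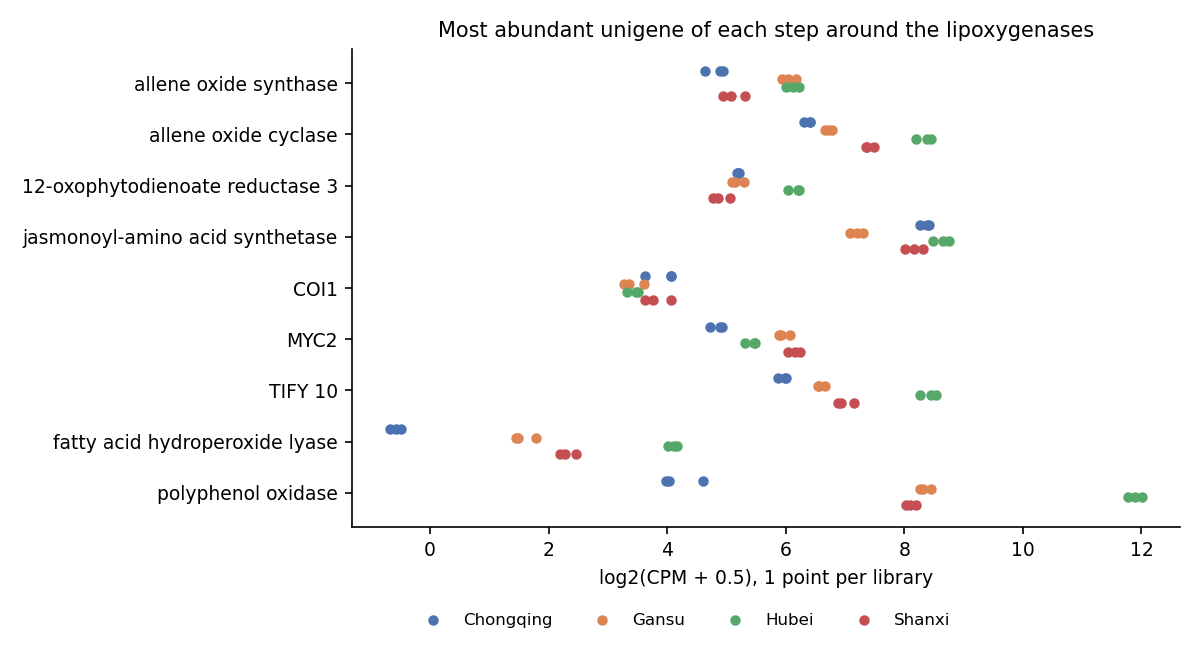
Level of the most abundant unigene at 9 steps around the lipoxygenases as log2(CPM + 0.5), 1 point per library and 3 libraries per area. Hubei lies above the other areas for allene oxide cyclase, 12-oxophytodienoate reductase 3, the jasmonoyl-amino acid synthetase, TIFY 10, hydroperoxide lyase and polyphenol oxidase. It overlaps with Gansu for allene oxide synthase, and it does not lie above the other areas for MYC2 or COI1.

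The unigenes most like each lipoxygenase were sought among 13020 or 13019 others that had a Swiss-Prot description and reached a mean of 3 in log2 CPM, by Pearson correlation of log2 CPM over the 12 libraries, which share their areas. For 13S-lipoxygenase 2-1 they were bZIP transcription factor 29 (r = 0.992), probable protein phosphatase 2C 27 (0.991), NEDD8-specific protease 1 (0.990) and BAG family molecular chaperone regulator 1 (0.989). All 4 were highest in Hubei, by unlike amounts: the protease had 90.2 ± 9.64 CPM there and 2.79 to 4.65 elsewhere, and bZIP 29 had 70.8 ± 3.68 against 30.7 to 32.7. For 13S-lipoxygenase 3-1 they were NDR1/HIN1-like protein 13 (0.999), major allergen Api g 1 (0.998), mitochondrial uncoupling protein 5 (0.998) and U-box domain-containing protein 44 (0.996). The allergen, a member of the PR-10 protein family, had 4188 ± 402 CPM in Hubei, 898 ± 77.0 in Shanxi, 582 ± 44.5 in Gansu and 406 ± 24.9 in Chongqing. For 9S-lipoxygenase 5 they were non-specific phospholipase C6 (0.998), elongation factor 1-alpha (0.996), probable kinase WNK2 (0.996) and NAD(P)H-quinone oxidoreductase subunit H (0.995). The phospholipase had 83.4 ± 1.09 CPM in Shanxi, 65.9 ± 1.57 in Hubei, 58.5 ± 2.78 in Gansu and 9.88 ± 0.782 in Chongqing.

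Marker lists for tissues of the root, summed as CPM, also differed by area, and none of their members was at 0 in all libraries. The 26 phloem markers summed to 125.5 to 133.8 in the Chongqing libraries, 253 to 270.3 in Hubei, 316 to 332 in Gansu and 415 to 444 in Shanxi. The members did not all follow these sums. Of 22 tested, 13 were higher in Hubei than in Gansu and 5 lower, beside 26.5% and 24.0% of all tested unigenes (median log2 difference -0.81 for Gansu minus Hubei). Between Hubei and Shanxi, 5 were higher in Hubei and 4 lower, beside 23.5% and 21.0%. The 36 markers of dividing cells summed to 435 to 468 in Hubei, the highest area as for both 13S-lipoxygenases, against 333 to 351 in Chongqing, 314 to 324 in Shanxi and 209.8 to 224 in Gansu. Of 34 tested, 17 were higher in Hubei than in Chongqing and 8 lower, beside 25.9% and 23.6% of all tested unigenes. Against Shanxi, 11 were higher in Hubei and 7 lower, beside 23.5% and 21.0%. The 22 xylem markers summed to 17.1 to 19.6 in Hubei and 8.14 to 16.1 elsewhere. But of the 12 tested, 4 were higher in Gansu than in Hubei and 2 lower, beside 24.0% and 26.5% (median 1.37 for Gansu minus Hubei). The sum of the 63 periderm and endodermis markers was lowest in Hubei, at 412 to 455 against 593 to 749. Yet of 56 tested, 17 were higher in Chongqing than in Hubei and 14 lower, beside 23.6% and 25.9% (median 0.00). The 49 markers of photosynthetic tissue summed to 677 to 726 in Chongqing, 584 to 639 in Hubei, 549 to 597 in Shanxi and 409.7 to 465 in Gansu. The part of these differences in the lipoxygenase levels was not tested, and in bulk roots fewer cells of a type and less RNA per cell cannot be told apart.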

How the data were processed

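RNA of 12 root libraries was measured as estimated counts and FPKM per unigene, both deposited by the authors. Per the submitters' processing notes, FastQC, Trimmomatic, Bowtie2, featureCounts, RSEM and DESeq2 were used; the sources used here do not give their versions, their roles or the division of reads between similar unigenes. The deposited estimated counts were rounded to whole numbers and fitted with edgeR 4.0.16 (glmQLFit, glmQLFTest; R 4.3.3) over all 12 libraries with TMM factors (0.941 to 1.05), the filterByExpr filter by area, which left 60756 of 67432 unigenes, and 8 residual degrees of freedom. The biological coefficient of variation was 0.251. Benjamini-Hochberg adjustment ran over all tested unigenes, and an adjusted p under 0.05 was called. The SE of a log2 difference is its size divided by the square root of F. The scripts were tested on simulated data. The deposited FPKM, scaled by the authors for length and library total, served to compare unigenes. Replicates differed by more than counting noise (chi-square per degree of freedom 4.47 to 8.85), so none was merged.

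The members and lists were chosen with earlier results of these data known. Lists were matched on descriptions. Besides the 3 unigenes, the text names their NR partners, other lipoxygenases whose log2 CPM averaged at least 3, the 2 most abundant called members of each list and the 4 unigenes most correlated with each lipoxygenase. Unigenes picked after their values were seen are marked. Alternatives used DESeq2 1.42.0, limma 3.58.1 on log2(FPKM + 1) or log2(FPKM + 0.1), other normalization and filters, 2 areas at a time, the replicate number as a block, sums by NR entry and each library left out.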

Additional observations from a re-analysis of the deposited data

How the results depend on the processing

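Of the 1579 recomputed values, 1497 kept their direction and side of the threshold, or stayed close to the reported value. For Gansu minus Shanxi of 13S-lipoxygenase 2-1, the sum over its NR entry gave a log2 difference of -0.56. That of the unigene itself was 2.14 and was not called. Leaving out 1 library in turn gave 1.59 to 2.79, and 2.68 without Gansu replicate 1, the 1 library whose removal led to a call; a fit of Gansu and Shanxi alone gave no value, since the unigene did not pass its filter. Gansu minus Hubei of 9S-lipoxygenase 5 reversed from -0.22 to 0.27 when summed. Gansu minus Shanxi of its sum ranged from -0.31 to -0.20 with 1 library left out and lost its call without Gansu replicate 3. Summing by NR entry left 20 units of the 35 lipoxygenase unigenes, so that by construction fewer were called. There were 18 for any difference, 15 for Chongqing against Hubei, 16 for Chongqing against Shanxi and 15 for Gansu against Hubei. Gansu against Shanxi and Hubei against Shanxi had 14 each. These units include the entries of the 3 described unigenes, which were chosen by their levels. The counts of called units are therefore a description and no test of the family. Over all tested NR entries, 69.6% were called for any difference and 44.6% for Gansu against Shanxi. No such share was taken for the other pairs. Their counts of called units therefore have no background to be read against, and nothing is concluded from them. The untested log2 differences of 13S-lipoxygenase 2-1 also moved: Chongqing minus Hubei ran from -10.62 without Chongqing replicate 1 to -5.30 on log2(FPKM + 1), a scale that shrinks low values. The replicate numbers did not pair the libraries: 1 of 18 same-numbered pairs correlated over 0.1 (range -0.134 to 0.116), and 7 had their highest correlation with their own number. With the replicate block, Gansu minus Shanxi was -1.15 for 13S-lipoxygenase 3-1 and 2.15 for 13S-lipoxygenase 2-1, and no call of these unigenes or sums changed. Sums of 22 or fewer counts an area limit what can be said of 13S-lipoxygenase 2-1 outside Hubei.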
